A study of Mus musculus with 2 samples.

Results

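The miR-130/301 family is a group of microRNA genes whose 3' arm products share one seed, the stretch of bases 2 to 8 that pairs with target messenger RNAs. Its 4 members here were Mir130a, Mir130b, Mir301 (the gene of miR-301a) and Mir301b, out of 2202 annotated microRNA genes counted. They were chosen by name, with their levels and their spread between libraries already known, so those values are given as a description and without a test. The libraries came from the adrenal gland, an endocrine organ with an outer cortex that makes steroids around a medulla that makes catecholamines, of 10-day-old female B6CASTF1/J mice, a hybrid strain of C57BL/6J and CAST/EiJ parentage. There was 1 group of 2 libraries, labelled biological replicates 1 and 2 from animals numbered 3 and 4. The donor entry is the same for both, and the replicate and animal numbers are what mark them as separate animals. No condition was compared with another.

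A microRNA is cut from a hairpin precursor into a 5' arm and a 3' arm product, and the product loaded into an Argonaute protein lowers the stability and translation of messenger RNAs that match its seed. Products with the same seed can act on overlapping sets of targets, which is why the family is treated as a unit. The family is best known from blood vessels. Mir130a represses the homeobox genes Meox2 and Hoxa5 in endothelial cells, and the family represses Pparg, a nuclear receptor of fat cells and vessel walls, in fat cell precursors and in the lung vasculature.

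The mature 3' arm products of 3 members were matched in the RefSeq sequence table of build GRCm38.p6. They are printed 5' to 3' with the seed in capitals, because the shared seed defines the family and the remainder of the sequence is what lets reads of one gene be told from those of another.
miR-130a-3p: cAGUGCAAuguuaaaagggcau
miR-130b-3p: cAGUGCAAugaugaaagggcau
miR-301a-3p: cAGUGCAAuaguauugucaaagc
Counted from 1 at the 5' end, miR-130a-3p and miR-130b-3p differed at 2 of 22 positions, U11A and A13G (the base of miR-130a-3p first). miR-130a-3p and miR-301a-3p were identical over their first 9 bases and differed at 10 of the 22 positions compared. miR-130b-3p and miR-301a-3p were likewise identical over 9 bases and differed at 11 positions. The family thus consists of a miR-130 type and a miR-301 type that part after the seed.

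The 5' arm products of all 4 members were matched, again with bases 2 to 8 in capitals, to show that the opposite arms do not share one seed.
miR-130a-5p: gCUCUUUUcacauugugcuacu
miR-130b-5p: aCUCUUUCccuguugcacuacu
miR-301a-5p: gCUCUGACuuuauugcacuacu
miR-301b-5p: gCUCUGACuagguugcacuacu
The seed of miR-301a-5p was identical to that of miR-301b-5p, and these products differed at 3 of 22 positions, the fewest of the 6 pairs of 5' arms. In the other pairs the seeds differed, and 6 to 8 positions differed over the whole product. The counts are per hairpin gene and do not separate the arms, so a value given for a gene is the sum of both.

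Mir301b entered by its hairpin, printed with that of Mir301 because these 2 genes stand far apart in level and share the longest run of sequence. Capitals mark the heptamer AGUGCAA of the family seed.
Mir301: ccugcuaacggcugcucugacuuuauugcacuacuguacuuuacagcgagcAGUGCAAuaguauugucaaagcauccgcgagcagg
Mir301b: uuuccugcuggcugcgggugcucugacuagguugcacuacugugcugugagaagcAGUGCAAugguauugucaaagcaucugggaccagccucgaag
The 4 hairpins held the heptamer once each. The longest run common to all 4 was agcagugcaau, 11 bases around the seed. The longest run shared by a pair was 16 bases, between Mir301 and Mir301b, and the other 5 pairs shared runs of 12 to 14 bases. The 16-base run, guauugucaaagcauc, begins soon after the heptamer, so the 3' arms of Mir301 and Mir301b are close in sequence. How well reads of these 2 genes were told apart was not tested. Each of the 7 matched mature sequences occurred in 1 hairpin among the 1005 of the table and in the transcripts of 1 gene of the GENCODE M21 annotation, its own. None of these 7 products therefore had a second exact copy among these sequences, and miR-301b-3p was unmatched and not searched. Such copies bear on the counts because reads that fit several places were left uncounted.

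The hairpins ran from 64 bases for Mir130a to 97 bases for Mir301b, against a median of 79 bases over the table. Predicted folding energies per base were -0.35 kcal/mol for Mir130a, -0.37 for Mir130b, -0.43 for Mir301 and -0.40 for Mir301b, around a median of -0.41 over 997 distinct hairpins. The seed heptamer was fully paired in the predicted fold of all 4. The GC content of the hairpins lay between 45.3% (Mir130a) and 56.1% (Mir130b), with a median of 51.7% over the table.

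The members lie at 3 places in the genome (mm10). Mir130a is at chr2:84741115-84741178 on the minus strand, inside no other annotated gene, 991 bases from Gm19426 and 2460 bases from Ypel4. Mir301 is at chr11:87113004-87113089 on the plus strand, in an intron of Ska2, a gene of the spindle and kinetochore complex, on the same strand. Mir130b (chr16:17124061-17124142) and Mir301b (chr16:17124400-17124496) lie 258 bases apart on the minus strand, both in an intron of the protein-coding gene 2610318N02Rik. No other annotated microRNA gene lay within 10 kb of a member on its strand, so Mir130b and Mir301b form the 1 cluster of the family.

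Replicate 1 held 2023410 reads on the sense strand of microRNA genes and replicate 2 held 3208821. Levels are given in CPM, the count scaled to a total of 1000000 such reads, so that 1 count equals 0.494 CPM in the first library and 0.312 CPM in the deeper second one. Intervals of levels and shares are exact 95% intervals that cover counting error within a library only, and not the spread between animals. They treat each read as independent. Molecular identifiers are not mentioned for these libraries, and copies of the same molecule were not removed. If such copies were counted, the intervals given here are too narrow even for counting error. Reads that aligned to several places, 25.0% and 27.2% of all reads, were not counted. The neuroendocrine microRNA Mir375, a marker of medullary cells, stood at 24805 and 31924 CPM, higher in replicate 2. Mir7b (2333 and 2081 CPM) and Mir137 (869 and 774 CPM) of the same list were slightly lower there, and the list's median log2 ratio of replicate 2 over replicate 1 was -0.12. No microRNA on the lists marks the cortex.

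Mir130a was by far the most abundant member and nearly level between the animals. It was counted 11885 times in replicate 1 (5874 CPM, interval 5769 to 5980) and 17790 times in replicate 2 (5544 CPM, interval 5463 to 5626). Its mean was 5709 CPM ± 233 (SD, n = 2), rank 37 of the 329 measured genes, those that reached 10 CPM in at least 1 library. The libraries were close, with replicate 1 slightly higher.

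Mir301 was the member that differed most. It was counted 2465 times in replicate 1 (1218 CPM, interval 1171 to 1267) and 415 times in replicate 2 (129 CPM, interval 117 to 142). Replicate 1 was high and replicate 2 low, and their CPM values stood 9.42-fold apart. Mir301 ranked 83 of 329 in replicate 1 and 187 in replicate 2. The mean of 674 CPM had an SD of 770 (n = 2), larger than the mean itself, so it describes neither animal.

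Mir130b was counted 999 times in replicate 1 (494 CPM, interval 464 to 525) and 1247 times in replicate 2 (389 CPM, interval 367 to 411), a mean of 441 CPM ± 74.3 (SD, n = 2). Replicate 1 was again the higher library, by 1.27-fold in CPM. Mir301b was the least abundant, at 34 counts in replicate 1 (16.8 CPM, interval 11.6 to 23.5) and 44 in replicate 2 (13.7 CPM, interval 9.96 to 18.4). Its mean was 15.3 CPM ± 2.19 (SD, n = 2), its intervals in the libraries overlapped, and all 4 members were above 10 CPM in both libraries.

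**Figure D1:**
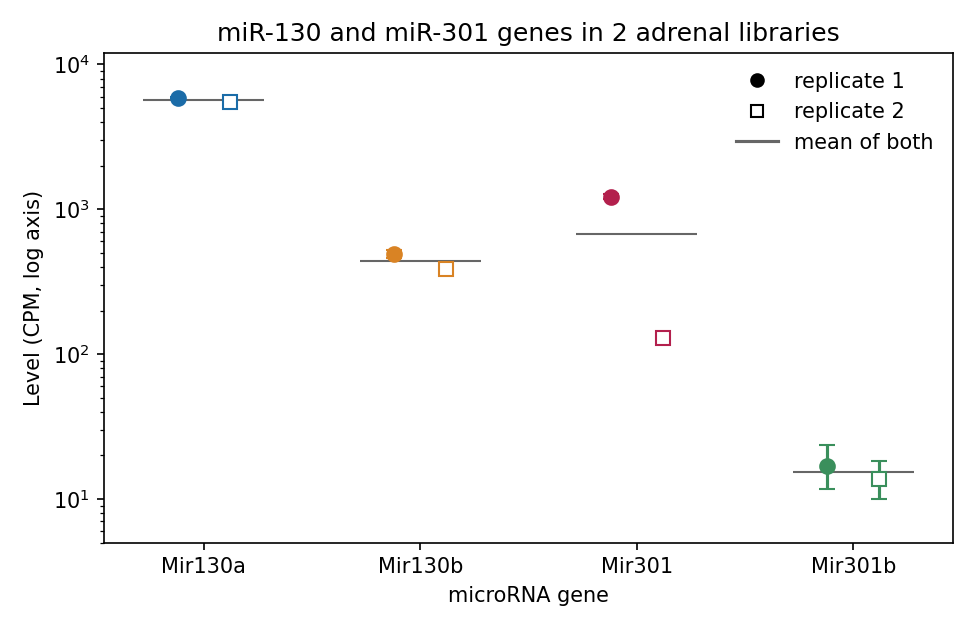
Level of the 4 genes in each library, in CPM on a log axis; points are libraries, error bars are exact 95% Poisson intervals (counting error, mostly smaller than the point) and grey lines are means. The points of Mir130a, Mir130b and Mir301b lie close together, while those of Mir301 stand at 1218 and 129 CPM.

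The order of levels was therefore not the same in both animals. Mir130a was the highest and Mir301b the lowest in each library, while Mir301 stood above Mir130b in replicate 1 and below it in replicate 2. Mir130b held 0.405 times the counts of Mir301 in replicate 1 and 3.00 times in replicate 2. The order of these 2 neighbours thus reversed between the libraries, and no order of their means is given. Mir130a exceeded Mir130b 11.9-fold and 14.3-fold, and Mir301 4.82-fold and 42.9-fold, in replicates 1 and 2. The matched mature products are 22 or 23 bases long, so no scaling by length was made. How efficiently each sequence is captured in the library was not tested, and these ratios between genes are ratios of reads.

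The family as a whole took 0.760% of counts in replicate 1 (interval 0.748 to 0.772%) and 0.608% in replicate 2 (interval 0.599 to 0.616%), a mean of 0.684% ± 0.108 (SD, n = 2). In CPM the family summed to 7603 and 6076, a difference of 1527 CPM. Mir301 made up 1089 CPM, or 71.3%, of that difference. Without Mir301, the other 3 members summed to 6384 and 5946 CPM.

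Within the family, Mir130a supplied 77.3% of counts in replicate 1 and 91.2% in replicate 2. Mir301 supplied 16.0% (interval 15.4 to 16.6%) and 2.13% (interval 1.93 to 2.34%). Mir130b stayed at 6.49% and 6.40%, with overlapping intervals, and Mir301b at 0.221% and 0.226%. The rise of the Mir130a share accompanied the smaller Mir301 count, since the shares sum to the whole and the Mir130a level itself was 1.06-fold lower in replicate 2.

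**Figure D2:**
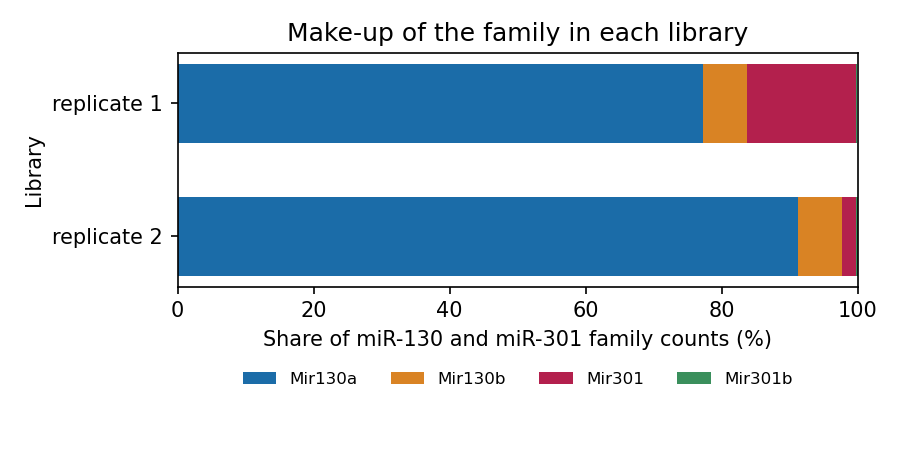
Share of the family's counts (%) held by each gene, 1 bar per library. Mir130a takes most of both bars, and the Mir301 segment shrinks from 16.0% in replicate 1 to 2.13% in replicate 2; Mir301b is a thin edge at the right.

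The clustered pair stood at a similar ratio in both libraries. Mir301b made up 3.29% of the summed Mir130b and Mir301b counts in replicate 1 (interval 2.29 to 4.57%) and 3.41% in replicate 2 (interval 2.49 to 4.55%), a mean of 3.35% ± 0.0827 (SD, n = 2). Mir130b reads outnumbered those of Mir301b 29.4-fold and 28.3-fold. Mir301 and Mir301b, which share the miR-301 type of sequence but lie on different chromosomes, stood 72.5-fold apart in replicate 1 and 9.43-fold apart in replicate 2. At 34 and 44 counts of Mir301b, no difference between the libraries was detectable beyond counting error.

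The libraries were set against each other by log2 ratios of replicate 2 over replicate 1, after TMM scaling (a trimmed-mean correction of library totals) and with 1 CPM added to each value. The ratio was -0.04 for Mir130a (exact interval without the added CPM -0.07 to -0.002), -0.30 for Mir130b (-0.42 to -0.18), -0.23 for Mir301b (-0.92 to 0.45) and -3.18 for Mir301 (-3.34 to -3.04). The signs of all 4 were negative, where the median over all measured genes was -0.01, so a negative sign was common. The interval of Mir301b included 0, and that of Mir130a ended next to it. Each animal gave 1 library, so the animal and the library preparation cannot be told apart.

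A ratio of at least 1 log2 unit in size, a 2-fold difference, was reached by 1 of the 4 members, Mir301. Over all measured genes 73 of 329, or 22.2%, reached it, and 37 (11.2%) did so with replicate 2 lower and 36 (10.9%) with replicate 2 higher. A count of 1 among 4 is near that background and is no result about the family as a set. The median log2 ratio of the members was -0.26, beside a median of -0.01 over all measured genes. In size, ignoring sign, the median was 0.26 for the members and 0.49 over all measured genes.

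What set Mir301 apart was the size of its ratio. In absolute size it ranked 5 of 329, larger than that of 98.5% of measured genes, and among negative ratios it was second to Mir195a (-3.24, from 5135 to 525 CPM). The next most negative ratio, of Mir544 at -3.09, rested on 21 counts in replicate 1 and 1 in replicate 2, whereas Mir301 had 2465 and 415. At the other extreme, the ratio of Mir130a was smaller in size than those of all but 11 genes (rank 318 of 329). Mir130b and Mir301b ranked 226 and 240, in the lower part of the order.

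**Figure D3:**
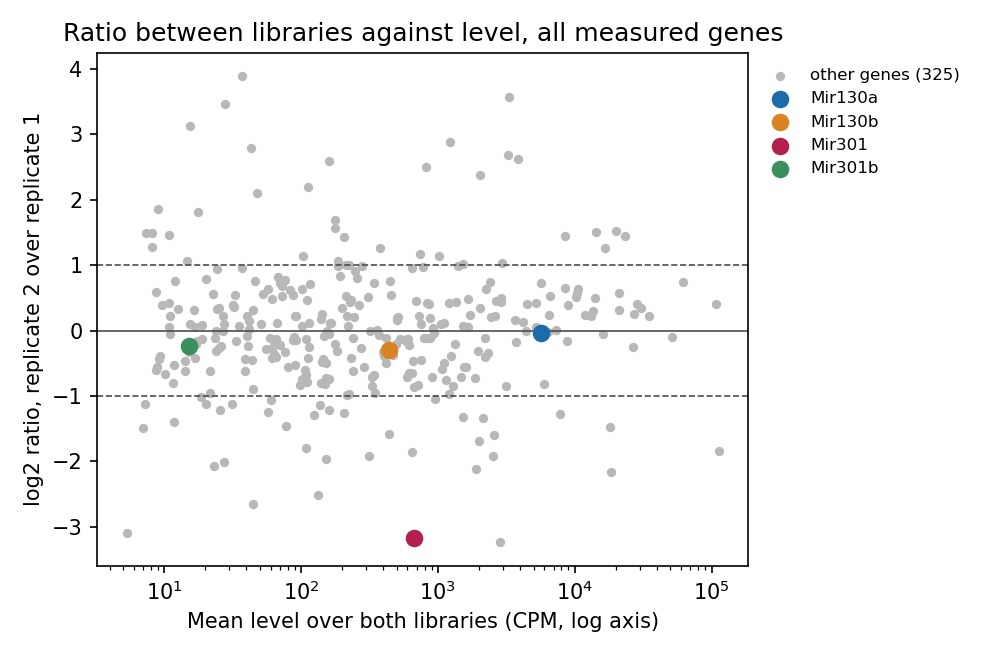
log2 ratio of replicate 2 over replicate 1 against mean level (CPM, log axis) for the 329 measured genes, with the 4 members in colour; dashed lines mark 1 log2 unit. Mir301, at -3.18, lies near the lower edge of all genes, and Mir130a, Mir130b and Mir301b lie between -0.30 and -0.04.

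Opposite-strand reads were nearly missing for the members. They numbered 0 for Mir130b, Mir301 and Mir301b in both libraries, and 0 and 2 for Mir130a. Counts made irrespective of strand were the same as sense-strand counts for Mir301, 2465 and 415.

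Genes with the most similar pattern were taken as the 2 nearest to each member by Euclidean distance of log2(CPM + 1) over the 2 libraries, among the 329 measured. Mir351 (6060 and 5864 CPM, distance 0.09) and Mir431 (5223 and 5239 CPM, 0.19) were nearest to Mir130a. Mir1839 (537 and 399 CPM, 0.13) and Mir125b-1 (445 and 398 CPM, 0.15) were nearest to Mir130b, the latter a numbered copy whose shared reads went uncounted. Mir6540 (17.3 and 13.1 CPM, 0.07) and Mir488 (18.3 and 15.0 CPM, 0.17) were nearest to Mir301b. Mir301 had no such close neighbour: the nearest were Mir665 (1029 and 274 CPM) and Mir666 (661 and 212 CPM), at distances of 1.10 and 1.13 log2 units. With 2 libraries, such likeness describes level and 1 ratio and nothing more.

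The same seed occurs in 7 of the 1738 mature sequences of the table, or 0.403%, of which 3 belong to members and 4 to other genes. These 4 are printed because they could add to the pool of products with this seed, had they been present.
miR-130c: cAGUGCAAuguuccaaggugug
miR-6341: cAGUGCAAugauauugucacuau
miR-6389: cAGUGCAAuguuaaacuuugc
miR-721: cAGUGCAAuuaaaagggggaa
Mir130c, Mir6341, Mir6389 and Mir721 each had 0 counts in both libraries. For reads that align to 1 place, the upper limit at 0 is taken as 3 counts, or 1.48 CPM in replicate 1 and 0.935 CPM in the deeper replicate 2. All counted reads of genes matched to this seed came from the members.

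The miR-148 and miR-152 microRNAs, a related group fixed for comparison, carry the first 6 bases of the family seed shifted by 1 position, starting at base 3.
miR-148a-3p: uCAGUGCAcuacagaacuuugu
miR-148b-3p: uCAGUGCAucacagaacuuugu
miR-152-3p: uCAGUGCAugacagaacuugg
Capitals again mark bases 2 to 8, and none of the 3 holds the whole heptamer. Mir148a stood at 641 and 568 CPM, Mir152 at 255 and 227 CPM and Mir148b at 194 and 107 CPM, 1090 and 902 CPM in sum. None of the 3 reached 1 log2 unit, the largest in size being Mir148b at -0.81 (interval -1.03 to -0.61). Among all measured genes 22.2% did, so none of 3 is no result about this group. All 3 were below Mir130a in both libraries. Mir148a stood above Mir130b (494 and 389 CPM) in each library, and Mir148b and Mir152 stood below it. Against Mir301 all 3 were lower in replicate 1 (1218 CPM). In replicate 2 (129 CPM) Mir148a and Mir152 were higher than Mir301 and Mir148b was lower.

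Other microRNAs of the same pathways were taken from fixed lists. Mir27a (636 and 559 CPM) and Mir27b (3999 and 3430 CPM), which also repress Pparg, had log2 ratios of -0.14 and -0.17, so neither of 2 reached 1 log2 unit. In lung vessels the family is placed upstream of the microRNAs known in mouse as Mir322 and Mir503, through Pparg, and of Mir204 in smooth muscle. Mir322 stood at 19026 and 22827 CPM (log2 ratio 0.31), Mir503 at 870 and 463 CPM (-0.86) and Mir204 at 57.8 and 96.3 CPM (0.77). None of these 3 reached 1 log2 unit, and they lay on both sides of 0. Among all measured genes the share was 22.2%, so none of 2 and none of 3 are no result about these lists.

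Of the endothelial list, Mir126a, the main microRNA of endothelial cells, stood at 177728 and 47927 CPM (log2 ratio -1.84). Mir221 (454 and 849 CPM, 0.95) and Mir222 (66.7 and 99.4 CPM, 0.62) lay in the other direction, and Mir126b, at 3.95 and 1.56 CPM, was under the floor. Of the 4 genes, 3 were measured and 1 reached 1 log2 unit, with a median of 0.62. Over all measured genes 22.2% reached it, so 1 of 3 is no result about this list. Mir126a and Mir301 were among the 11.2% of measured genes lower in replicate 2 by at least 1 log2 unit. Mir130a was nearly level, and a link of Mir301 with endothelial cells was not tested.

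**Figure D4:**
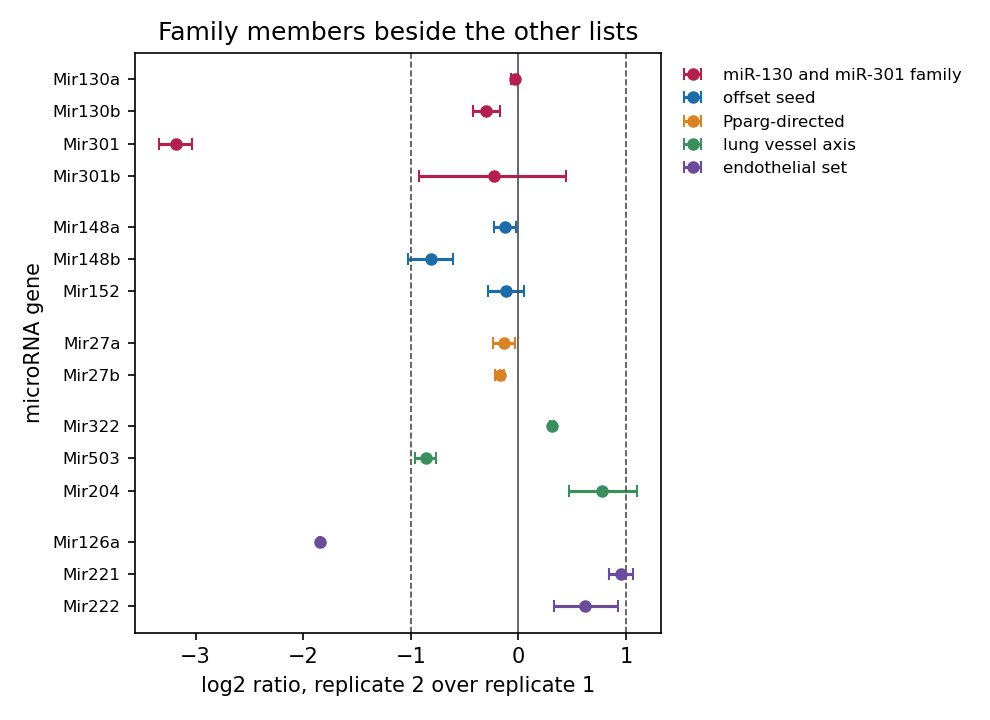
log2 ratio of replicate 2 over replicate 1 for the members and for the measured genes of 4 other lists, with exact 95% intervals (counting error only); dashed lines mark 1 log2 unit. Of the 15 genes drawn, Mir301 (-3.18) and Mir126a (-1.84) lie beyond it.

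Markers of several cell types and tissues also differed between the libraries, some in the direction of Mir301. Lower in replicate 2 were Mir122 of liver (26733 and 9284 CPM), all 4 striated muscle markers (summed 11312 and 4505 CPM), all 3 red blood cell markers (summed 653 and 320 CPM) and 2 of 3 measured kidney or gut epithelial markers (all 4 of that list summed to 410 and 214 CPM). Mir206 alone held 11177 and 4480 CPM of the striated muscle sum. Of the endothelial markers, Mir126a was also lower (177728 and 47927 CPM), and Mir126b was under the floor (3.95 and 1.56 CPM). Mir221 and Mir222 of the endothelial list above lay in the other direction. Higher in replicate 2 were all 7 epithelial markers (summed 742 and 3274 CPM), all 5 leukocyte markers (2455 and 4308 CPM) and both smooth muscle markers (28429 and 39314 CPM). At least 1 log2 unit higher were 5 of 7 epithelial, 2 of 5 leukocyte and 1 of 2 smooth muscle markers. Mir122, Mir126a, all 4 striated muscle and 1 of 3 red blood cell markers were lower by as much. So were 2 of 3 measured kidney or gut epithelial markers. Over all measured genes, 11.2% were lower and 10.9% higher by that much, and the median log2 ratio was -0.01. No marker on these lists was at 0 in both libraries. Their part in the Mir301 difference was not tested, and in a whole gland fewer cells of a type and less RNA per cell cannot be told apart. Whether the reads of the liver, striated muscle and kidney or gut markers came from cells of the gland itself was not tested either.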

How the data were processed

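Small RNA of the adrenal gland was sequenced in 1 library from each of 2 mice. The deposited values are raw counts of reads per microRNA gene, which the authors made on mm10 with the GENCODE M21 annotation, per the file headers in the deposited text. Aligner and counting program: not given in the sources used here. The table has 3 count columns, by their values irrespective of strand, on the gene's strand and on the opposite strand. Summary lines stayed out of totals; unmapped reads were 28.1% and 26.4% of all reads in replicates 1 and 2, and reads outside microRNA genes 8.55% and 8.86%.

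Computed here were CPM over all 2202 matched gene identifiers, exact 95% Poisson and Clopper-Pearson intervals, and log2 ratios on TMM-scaled CPM (edgeR 4.0.16, R 4.3.3) with a pseudocount of 1 CPM, which understates differences of low genes. Ratio intervals were exact conditional binomial. No test was made, because the 2 libraries form 1 group and the members and lists were chosen with earlier results of these data known. Genes were measured at 10 CPM or more in either library. The calculation was tested on simulated counts with known folds and counting error only. That check held no spread between animals, so it bears on the arithmetic alone. Hairpins were folded with ViennaRNA 2.7.2; sequences are from RefSeq (GRCm38.p6), with 4 of 4 hairpins matched and miR-301b-3p unmatched.

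Genes named were the members, genes with the same seed, the 2 nearest in pattern, microRNA genes within 10 kb and the fixed lists; Mir195a and Mir544 were named after their values were seen. Alternatives changed the scaling, pseudocount, floor, strand column and library total, and left out each library.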

Additional observations from a re-analysis of the deposited data

How the results depend on the processing

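Under 5 alternatives of scaling, pseudocount and strand column, the log2 ratio of Mir301 ranged from -3.23 to -3.14, that of Mir130b from -0.34 to -0.26, that of Mir130a from -0.08 to -0.003 and that of Mir301b from -0.28 to -0.18. Mir301 stayed the 1 member at 1 log2 unit or more under these and with either other floor. At a floor of 100 CPM, 48 of 217 genes (22.1%) reached 1 log2 unit, with Mir301b no longer measured. With at least 1 count and no floor 131 of 790 (16.6%) did. Other numbers of genes enter in each case, and the pseudocount understates the ratios of the low genes that enter without a floor. What made the share without a floor lower was not tested. The mean family share was 0.932% irrespective of strand, where 621695 and 667292 reads were set aside as ambiguous (0 in the sense-strand column) and the assigned totals were 1401836 and 2541746 reads, and 0.260% of all sequenced reads. Without replicate 1 it was 0.608% and without replicate 2 it was 0.760%. Without replicate 1 the level of Mir301 was 129 CPM and without replicate 2 it was 1218 CPM. No paired analysis was possible because the libraries form 1 group. Depth limits Mir301b, at 34 and 44 counts, more than the other members.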
